A study of Mus musculus with 12 samples.

Results

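The response of RAW264.7 cells, a mouse macrophage line, to 6 h of LPS was measured as the difference between 3 LPS arrays and 3 DMSO arrays, which are 6 of the 12 arrays of the series. The cells of the DMSO group had DMSO, the vehicle, for 24 h, and those of the LPS group had 100 ng/ml of LPS from E. coli for 6 h. No source used here states whether the LPS cells had vehicle before LPS, so LPS and a difference in handling or time in culture cannot be told apart. The other 6 arrays carry AdipoAI, an adiponectin receptor agonist, given for 24 h alone (3 arrays) or before 6 h of LPS at 100 ng/ml (3 arrays). They serve here as a further set on which LPS can be compared with its own control. They also entered the normalization and the shared estimate of spread, and so bear on the p-values of LPS against DMSO. RAW264.7 is a single transformed line, and nothing states that the 3 arrays of a group came from separate cultures, so p-values measure only the spread between these samples, which may be technical.

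Lipopolysaccharide is a part of the outer membrane of Gram-negative bacteria and is sensed by macrophages through the receptor TLR4 with its partners CD14 and MD-2. The receptor signals through the adaptors MyD88 and TRIF, which activate NF-κB, the MAP kinases and interferon regulatory factors. The first wave of transcription yields cytokines, chemokines and feedback inhibitors, and interferon-β made in that wave drives a later wave of interferon-stimulated genes through STAT factors. Some hours after LPS a macrophage thus holds newly induced transcripts together with transcripts that are no longer made or are degraded.

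The arrays carry probes for mouse lncRNAs and mRNAs in 1 colour, and an intensity is comparable between arrays for a given probe but does not rank transcripts of different probes by abundance. After control spots, negative probes and probes with flagged spots were left out, 60694 probes remained, of which 32025 were well above background (a flag of the scanner software) on at least 3 of the 6 arrays and were tested. Nearly all of them bear identifiers of the array's maker that no table at hand links to a gene, so that lncRNAs and mRNAs were counted together, no cytokine or interferon list could be scored, and the labelled cell type could not be checked against its markers. The exceptions were 15 probes with RefSeq accessions and 1827 probes whose names mark a lincRNA. Per array, 29298 to 32969 probes passed the background flag, no spot was saturated, and of 300 spots of negative probes between 3 and 7 per array carried the flag. All 6 arrays were in 1 scan. The number of arrays limits the precision, with a median standard error of 0.18 for a log2 fold change.

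Among the genes that the files name, 3 promoters are shown because these genes carried the largest rise (Gk), the largest fall (Gusb) and the only matches to NF-κB or interferon-type motifs (B2m). The windows are from RefSeq on GRCm38.p6 and run from 250 bases before to 50 bases after the start of the gene, read 5′ to 3′ on the strand of the gene. They lie at chr2:122147437-122147736 on the plus strand for B2m, at chrX:85776770-85777069 on the minus strand for Gk and at chr5:130003000-130003299 on the minus strand for Gusb. Capitals mark matches to the NF-κB consensus and to GAAA NN GAAA, the repeat found in interferon-stimulated response elements, searched on both strands with N for any base.
B2m: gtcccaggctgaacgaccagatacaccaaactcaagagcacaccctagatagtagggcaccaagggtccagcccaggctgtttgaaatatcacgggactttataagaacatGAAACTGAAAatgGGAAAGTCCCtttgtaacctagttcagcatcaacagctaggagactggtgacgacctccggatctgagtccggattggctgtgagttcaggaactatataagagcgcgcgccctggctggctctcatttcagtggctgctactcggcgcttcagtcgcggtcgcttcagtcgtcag
Gk: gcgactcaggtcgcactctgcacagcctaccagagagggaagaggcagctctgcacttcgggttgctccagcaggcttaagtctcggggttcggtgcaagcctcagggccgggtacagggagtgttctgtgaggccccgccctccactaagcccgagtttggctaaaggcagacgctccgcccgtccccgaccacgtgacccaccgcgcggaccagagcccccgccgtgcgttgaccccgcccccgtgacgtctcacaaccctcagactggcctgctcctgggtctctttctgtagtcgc
Gusb: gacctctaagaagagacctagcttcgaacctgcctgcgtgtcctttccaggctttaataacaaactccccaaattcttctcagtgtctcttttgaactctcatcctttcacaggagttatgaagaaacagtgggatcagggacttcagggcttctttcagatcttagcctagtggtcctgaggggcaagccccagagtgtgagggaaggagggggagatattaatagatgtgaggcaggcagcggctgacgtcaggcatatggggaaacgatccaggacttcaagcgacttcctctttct
Of the 15 named genes, 13 had a window in the table, 14 windows in all, and matches were found in that of B2m alone. There GAAACTGAAA began at position -139 and GGAAAGTCCC, which matched the NF-κB consensus on the opposite strand, at position -126 relative to the start of the gene, with no overlap between them. Of all 32851 promoter windows in the table, 8.46% held the NF-κB consensus, 3.44% held GAAA NN GAAA and 0.247% held both. A match describes the letters of the window and shows no binding.

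A large part of the probes tested differed between LPS and DMSO. The methods set a threshold of 0.05 on the unadjusted p and of 1.5 on the size of the log2 fold change, and by it 3160 of 32025 probes were called (9.87%), of which 1595 were higher (4.98%) and 1565 lower (4.89%) in LPS. An adjusted p under 0.05 by limma with Benjamini-Hochberg adjustment was reached by 12846 probes (40.1%), with 5404 higher (16.9%) and 7442 lower (23.2%). All 3 LPS arrays lay above or below all 3 DMSO arrays for 17506 probes (54.7%), and for 3151 of the 3160 called. An adjusted p under 0.05 was also reached by 3151 of the called probes. The called probes had been chosen by size and p in the same contrast, so both counts are a description. Many probes lay near the threshold. With an unadjusted p under 0.05, 395 probes had a log2 fold change between 1.4 and 1.5 in size and 337 between 1.5 and 1.6. A further 11 probes past the fold change had a larger p.

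Each LPS array showed the response on its own. Against the mean of the DMSO arrays, 1595 probes were at least 1.5 higher on the log2 scale and 1524 lower on LPS replicate 1, 1719 and 1855 on LPS replicate 2, and 1728 and 1668 on LPS replicate 3. A DMSO array set against the other two showed between 62 and 93 probes higher and between 75 and 152 lower by that size, and an LPS array set against the other two between 62 and 92 higher and between 49 and 183 lower. Across the probes tested, Pearson r ranged from 0.989 to 0.993 within a group and from 0.935 to 0.946 between a DMSO and an LPS array. The first principal component of the 6 arrays held 82.4% of the variance, with the DMSO arrays between -96.4 and -91.5 and the LPS arrays between 86.6 and 98.5, and the second held 7.5% and separated arrays within both groups.

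Rises and falls differed in their sizes. The median log2 fold change was 2.44 among the probes called higher and -1.99 among those called lower, against -0.01 over all probes tested, and the range was from -6.81 to 12.04. With an adjusted p under 0.05, falls outnumbered rises at 2-fold or more, 3328 against 2497. From 4-fold on, rises outnumbered falls, with 1095 against 773 at 4-fold, 539 against 195 at 8-fold, 244 against 48 at 16-fold and 78 against 4 at 64-fold. No fall reached 128-fold, whereas 43 rises did, and 6 rises reached 1024-fold. Since a level below background gives no true fold, the same counts were taken over probes well above background on all 6 arrays. They were 1818 rises and 2425 falls at 2-fold, 140 and 20 at 16-fold, 31 and 2 at 64-fold, 19 and 0 at 128-fold and 2 and 0 at 1024-fold.

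**Figure D1:**
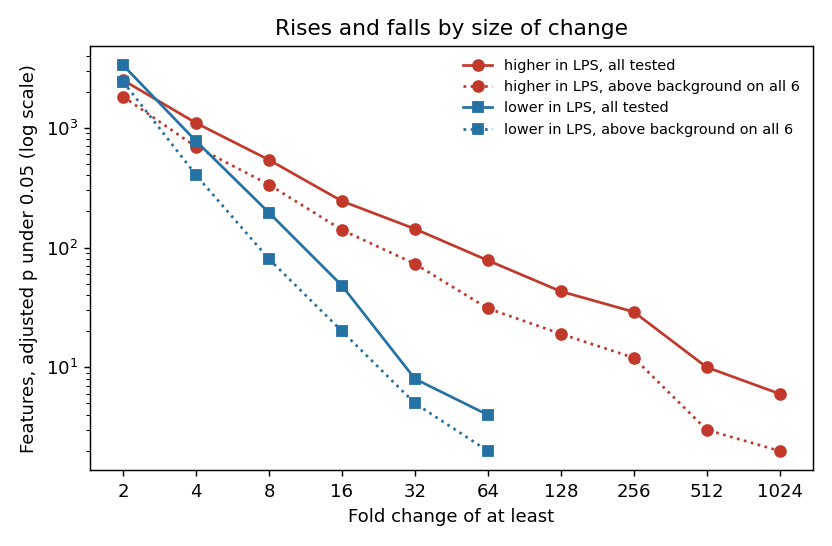
Number of probes with an adjusted p under 0.05 (vertical axis, log scale) at or past each fold change (horizontal axis, each step doubling it), for probes higher (red circles) and lower (blue squares) in LPS, over all probes tested (solid) and over those well above background on all 6 arrays (dotted). The lines cross between 2-fold and 4-fold, where 2497 rises and 3328 falls turn into 1095 rises and 773 falls, and no fall is drawn past 64-fold, where a count of 0 has no place on the log scale.

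The levels of the called probes in both groups are given as a description, since the same contrast chose them. For the probes called higher, the median log2 intensity was 5.13 in DMSO (quartiles 3.12 and 7.66) and 8.0 in LPS (quartiles 5.85 and 10.78). For the probes called lower, it was 6.88 in DMSO (quartiles 5.15 and 9.21) and 4.66 in LPS (quartiles 2.94 and 7.02). Of the summed intensity of an array, the probes called higher took between 0.998% and 1.04% on the DMSO arrays and between 6.72% and 6.94% on the LPS arrays. The 244 probes that rose at least 16-fold took between 0.0337% and 0.0382% in DMSO and between 1.81% and 1.85% in LPS. The probes called lower took between 2.6% and 2.77% in DMSO and between 0.603% and 0.662% in LPS. The groups did not overlap in any of these shares, which describe probes that had been chosen by the same contrast.

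How much of the response was called varied with the signal level. The probes tested were split by their mean log2 intensity over the 6 arrays into 5 bins of 6405. In the dimmest bin, from 2.22 to 4.29, 12.7% were called by the threshold of the methods and 26.7% had an adjusted p under 0.05. In the brightest bin, from 9.8 to 17.81, 8.17% were called and 46.3% had an adjusted p under 0.05. The dimmest bin thus held more calls by size and fewer by adjusted p than the brightest. It also held 966 probes well above background on all arrays of 1 group and none of the other, against 0 in the brightest. These passed the filter only through the group where they were brighter. The shares called in the dimmest bin, and their split by direction, are therefore a description. The median SD within a group decreased from bin to bin, from 0.34 in the dimmest to 0.12 in the brightest, on the log2 scale. The share of called probes that were higher in LPS was 43.8% in the dimmest bin, 49.8% in the middle bin and 62% in the brightest.

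**Figure D2:**
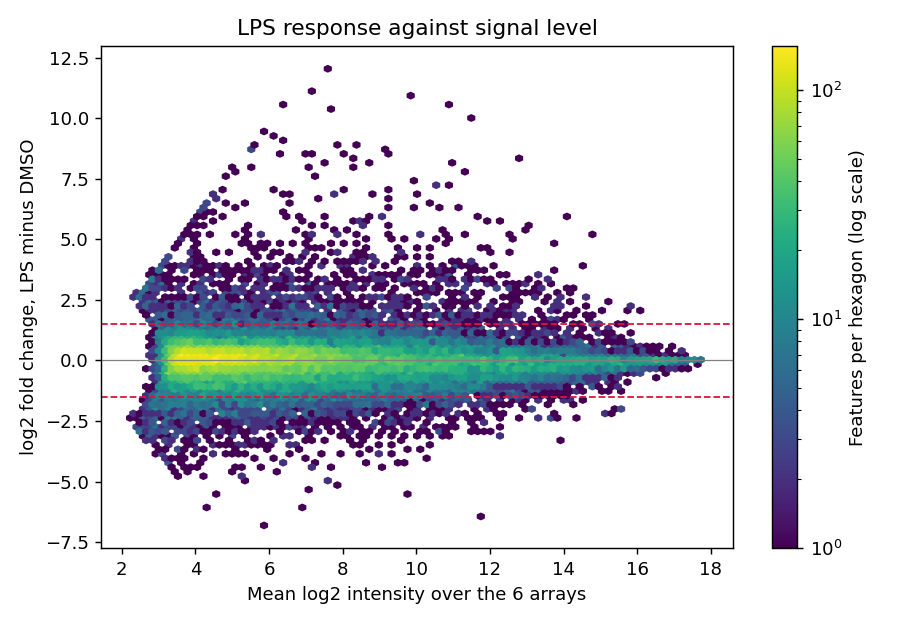
Log2 fold change of LPS minus DMSO (vertical axis) against the mean log2 intensity over the 6 arrays (horizontal axis) for the 32025 probes tested, with colour giving the number of probes per hexagon on a log scale and dashed lines at 1.5 in size. The cloud reaches 12.04 above 0 and -6.81 below it at middle intensities, and closes to a narrow tip among the brightest probes.

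Some transcripts passed from below to above background or the reverse. On all 3 LPS arrays and no DMSO array, 401 probes were well above background, and on all 3 DMSO arrays and no LPS array 643 were. By the same flag, 26723 probes were detected on all 6 arrays, 24328 on none, and 8599 on some arrays in another pattern. For a switched probe only a bound on the fold can be given, taken as its mean in the brighter group over the mean, per array, of the higher of its own value and the lowest value of any probe well above background. The 401 probes switched on had a median bound of at least 2.44-fold, a highest bound of at least 1300-fold, and 170 with a bound of at least 1.5 on the log2 scale. The 643 switched off had a median bound of at least 1.65-fold, a highest of at least 57.1-fold, and 109 with a bound of at least 1.5, while 1 of them had no fold because its bound was not above 0.

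Most switched probes were dim even where they were detected. In the brighter group the median log2 intensity was 4.55 for probes switched on and 4.14 for those switched off, where the lowest value of a probe well above background was between 3.08 and 3.69 across the arrays. Of the 1044 switched probes, 966 lay in the dimmest of the 5 bins and none in the brightest. The bins average in the group where a switched probe is, by definition, not well above background. This placement is therefore no further evidence of dimness. The range of the probes switched on reached 13.61, against 9.25 for those switched off. Of the probes called, 329 of 1595 higher (20.6%) had no DMSO array above background, and 387 of 1565 lower (24.7%) had no LPS array above background. Without DMSO replicate 1 the probes switched on were 613, and without DMSO replicate 3 those switched off were 1073. Leaving out an array loosens the rule, so these counts could only stay or rise.

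**Figure D3:**
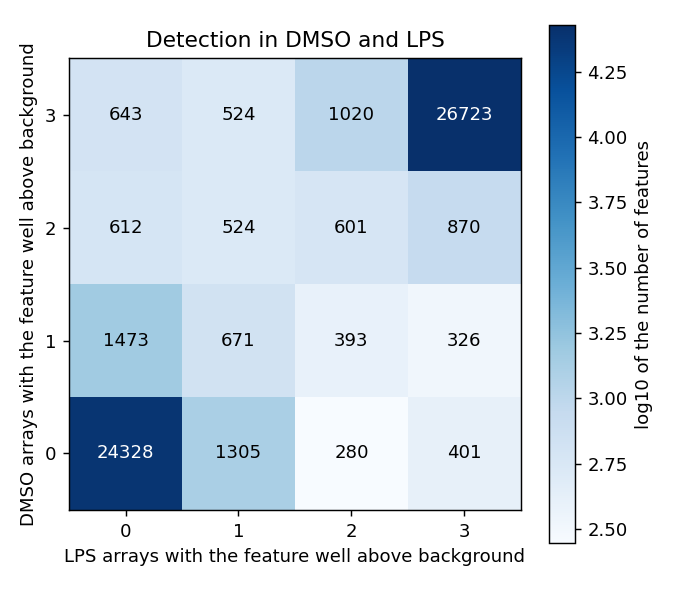
Number of probes, of 60694, by how many of the 3 DMSO arrays (vertical axis) and of the 3 LPS arrays (horizontal axis) had them well above background, with colour giving the log10 of the number. Most probes sit in the corners of full detection (26723) and no detection (24328), and the other corners hold the 643 probes switched off and the 401 switched on.

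Among probes well above background on all 6 arrays, the largest changes belonged to probes without a gene name. ASMM10P018056 had a log2 intensity of 3.86, 4.74 and 4.46 on the DMSO arrays and of 15.27, 15.42 and 15.32 on the LPS arrays, a rise of 10.98 ± 0.23 (SE, n = 3 per group), or 2016-fold, with a limma adjusted p of 9.1e-11. ASMM10P036113 went from 5.47, 5.51 and 5.84 to 16.25, 15.94 and 16.14, a rise of 10.50 ± 0.13 (limma adjusted p = 2.85e-12). Both probes went from the dim range to near the top of the intensity scale. The largest falls among probes above background on all 6 arrays were those of ASMM10P040151 and ASMM10P019158. ASMM10P040151 went from 15.03, 14.94 and 14.74 to 8.41, 8.55 and 8.51, a log2 change of -6.41 ± 0.14 and an 85.3-fold fall (limma adjusted p = 1.2e-10). ASMM10P019158 went from 10.17, 9.82 and 10.02 to 4.14, 3.35 and 3.97 (-6.18 ± 0.23, limma adjusted p = 6.02e-09). With normexp background correction the rises were 9.04 for ASMM10P018056 and 9.32 for ASMM10P036113, and ASMM10P019158 changed by -3.91. The DMSO and LPS arrays of these 4 probes were far from overlapping.

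Of the 15 genes named by a RefSeq accession, many of them in common use as references, 14 passed the filter, and 8 of these 14 had an adjusted p under 0.05, 4 higher and 4 lower, where 40.1% of all probes did. Their median log2 fold change was 0.35 in size, against 0.41 over all probes tested. Each of these probes was printed 20 times on an array, and the SD among its spots had a median of 0.034, against 0.082 for the SD among arrays of a group. The spots of a probe share the RNA of the array and were averaged.

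Gk, glycerol kinase, which phosphorylates glycerol for lipid synthesis, was past the threshold of the methods, by a margin that some settings removed. Its log2 intensity was 5.79, 5.8 and 5.78 on the DMSO arrays and 7.27, 7.23 and 7.43 on the LPS arrays, a rise of 1.52 ± 0.12 (SE), or 2.87-fold (limma adjusted p = 2.33e-06). The rise was 0.93 with normexp background correction, 1.49 in the deposited series table and 1.46 without LPS replicate 3, all under the threshold of 1.5, with the adjusted p still under 0.05. The LPS arrays lay more than 1.4 above every DMSO array. The promoter window of Gk printed above held neither motif, and a link between motifs and the response was not tested. Gusb, the lysosomal β-glucuronidase, had 14.49, 14.36 and 14.34 in DMSO and 13.56, 13.46 and 13.44 in LPS. It fell by 0.91 ± 0.10 on the log2 scale (limma adjusted p = 2.34e-05), which is a 1.88-fold lower level, and its arrays did not overlap.

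B2m, the light chain of MHC class I molecules, had 15.21, 15.37 and 15.46 in DMSO and 16, 15.66 and 15.92 in LPS, a rise of 0.51 ± 0.11 (limma adjusted p = 0.00395). Its promoter window is the one with both motifs. Tfrc, the transferrin receptor that takes up iron, had 14.96, 14.63 and 14.73 in DMSO and 15.28, 15.28 and 15.42 in LPS, a rise of 0.56 ± 0.12 (limma adjusted p = 0.00284). Actb, cytoplasmic β-actin, had 15.05, 15.35 and 15.36 in DMSO and 15.77, 15.55 and 15.96 in LPS, a rise of 0.51 ± 0.13 (limma adjusted p = 0.0111). Without LPS replicate 3 the adjusted p of Actb was 0.0526. In these 3 genes all LPS arrays lay above all DMSO arrays, by a margin that was narrowest in Actb and B2m.

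G6pd2, Hprt and Tuba1b fell by small amounts, in each case with no overlap of the arrays. G6pd2, an autosomal copy of the gene of glucose-6-phosphate dehydrogenase, had 10.45, 10.42 and 10.42 in DMSO and 10.16, 9.87 and 9.71 in LPS (-0.51 ± 0.13, limma adjusted p = 0.00883). Its transcript is closely similar to that of the X-linked G6pdx, and which of the 2 the probe measured is uncertain. Hprt, an enzyme of purine salvage, had 15.66, 15.55 and 15.51 in DMSO and 15.26, 15.09 and 15.19 in LPS (-0.39 ± 0.12, limma adjusted p = 0.0182). Tuba1b, an α-tubulin with near-identical relatives, had 17.57, 17.54 and 17.53 in DMSO and 17.23, 17.24 and 17.22 in LPS (-0.31 ± 0.08, limma adjusted p = 0.0121). With each array scaled to its 75th percentile instead of quantile normalization, the adjusted p of Hprt was 0.0949 and that of Tuba1b 0.227. Hprt also had an adjusted p of 0.06 when DMSO replicate 1 was left out and of 0.0689 when LPS replicate 2 was.

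The other 6 genes tested did not reach an adjusted p of 0.05. Rpl13a, a ribosomal protein, differed by -0.17 ± 0.09 (limma adjusted p = 0.179) with arrays that did not overlap, and Nono, an RNA-binding protein of paraspeckles, by -0.19 ± 0.11 (limma adjusted p = 0.199). Tbp, the TATA-binding protein, differed by 0.11 ± 0.16, with DMSO arrays at 9.95, 9.50 and 9.35 and LPS arrays at 9.84, 9.72 and 9.56. The chaperone Hsp90ab1, the prolyl isomerase Ppia and the glycolytic enzyme Gapdh differed by at most 0.02 in size with standard errors between 0.09 and 0.11, and their DMSO and LPS arrays overlapped, as did those of Nono and Tbp. Ldhal6b, a lactate dehydrogenase-like gene, was below background on all 6 arrays and was not tested. Probes for families with processed copies in the genome, such as Gapdh, Ppia and Rpl13a, can also bind transcripts of those copies.

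**Figure D4:**
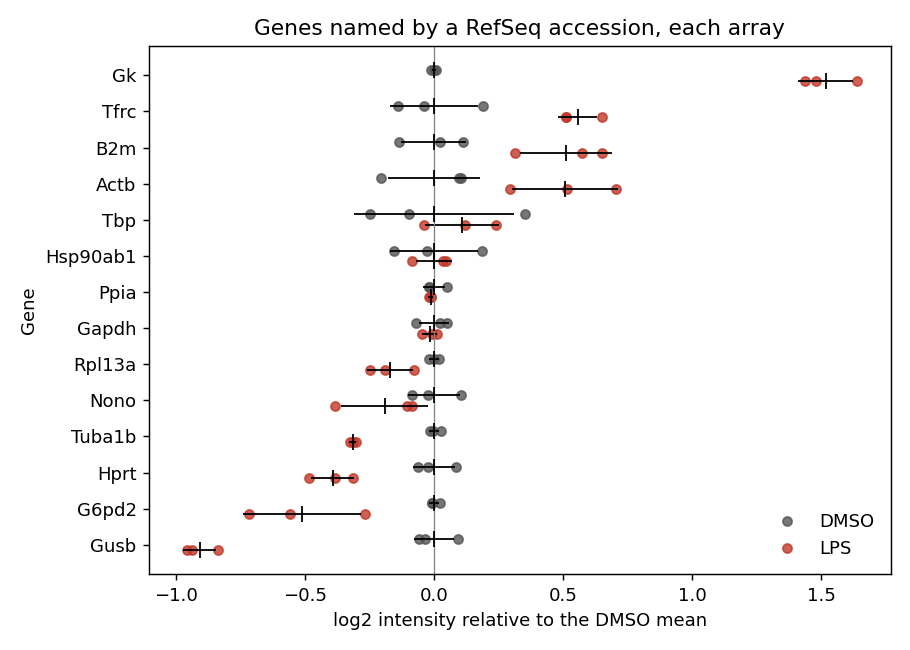
Log2 intensity of each array relative to the DMSO mean (horizontal axis) for the 14 tested genes named by a RefSeq accession (vertical axis), with DMSO arrays in grey and LPS arrays in red, and a black tick and bar for each group's mean ± SD (n = 3). Gk stands apart at the top with a mean of 1.52, Gusb at the bottom with -0.91, and Ppia, Gapdh and Hsp90ab1 lie at 0.

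The arrays also carry control spots for GAPDH and PGK1 labelled 3 and 5, taken here as the ends of the transcripts, as a sign of RNA quality. The log2 difference of the spot labelled 3 minus the spot labelled 5 was 1.59 ± 0.06 (SD, n = 3) in DMSO and 1.65 ± 0.14 (SD, n = 3) in LPS for GAPDH (exact permutation test, two-sided p = 0.7), and 7.54 ± 0.03 and 7.70 ± 0.46 for PGK1 (exact permutation test, two-sided p = 0.5). The smallest p that 3 arrays against 3 allow is 0.1, and the PGK1 spot labelled 5 lay near background, between 2.57 and 3.4 on the 6 arrays.

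Probes named as lincRNAs, intergenic RNAs without a known protein product, were dimmer than the array as a whole, and 348 of 1827 (19%) passed the filter. Of these 348, 22 were called by the threshold of the methods (6.32%), against 9.87% of all probes tested, with 17 higher and 5 lower in LPS. At an adjusted p under 0.05 there were 64 higher and 21 lower, whereas over all probes tested falls outnumbered rises. The 64 and 21 made up 24.4% of the lincRNA-named probes tested, against 40.1% of all probes tested. Rises also outnumbered falls with the arrays scaled to the 75th percentile (69 and 20), with normexp background correction (56 and 20) and in the deposited series table (65 and 24). Their median log2 fold change was 0.25, against -0.01 for all probes, and they ranged from -3.61 to 5.15. Their median log2 intensity was 4.62, against 6.33 for probes with the ASMM10P prefix, and the probes tested thus differed in signal level between the classes. By prefix, 1100 of the 1827 lincRNA-named probes were named humanlincRNA and 645 mouselincRNA, and what the prefixes stand for was not checked. The filter left 197 humanlincRNA and 128 mouselincRNA probes. An adjusted p under 0.05 was reached by 26.9% of the humanlincRNA and 21.9% of the mouselincRNA probes tested. Of these, 39 of 53 humanlincRNA probes and 21 of 28 mouselincRNA probes were higher in LPS. Probes with the rarer prefix ASMM10UP showed 12 higher and 1 lower among 13 called of 219 tested (5.94%, against 9.87% of all probes tested). An adjusted p under 0.05 was reached by 46 ASMM10UP probes (21%, against 40.1% of all probes tested), of which 27 were higher.

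The lincRNA names carry a strand sign, and 867 of 960 names had probes for both strands. Both strands passed the filter for 32 names. The log2 fold changes of the strands had the same sign in 19 of the 32, both strands had an adjusted p under 0.05 in 2, of which 1 had the same sign, and in 14 only 1 strand did. The names give no position in the genome, and none is printed as a gene.

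The LPS effect was measured a further time on arrays that share no sample with DMSO vs. LPS, as the difference between AdipoAI+LPS and AdipoAI. There 3115 of the 3160 called probes (98.6%) had the same direction, 1560 of 1595 that were higher and 1555 of 1565 that were lower, against 79% of all probes tested. Of the called probes, 1794 (56.8%) also passed the threshold in the same direction with AdipoAI and 1 passed it in the opposite direction. Over all 32025 probes tested, 2151 (6.72%) passed it with AdipoAI in the direction of their change without AdipoAI, and 15 in the opposite direction. Of the 244 probes that rose at least 16-fold, 238 passed it, and of the 48 that fell at least 16-fold, 47. Of the 401 probes switched on, 166 (41.4%) were also well above background on all AdipoAI+LPS arrays and no AdipoAI array, and of the 643 switched off, 147 (22.9%) showed that switch. The share of all probes that switched on the AdipoAI arrays is not given here, so these 2 shares are a description.

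The size of the effect with AdipoAI was a median of 74.7% of that without it among the called probes (quartiles 56.8% and 91.5%). The called probes had been chosen by their size on the DMSO and LPS arrays, so this ratio is a description. Across probes, which are not independent replicates, Pearson r between the 2 effects was 0.869 over the 32025 probes tested and 0.931 over the 3160 called. By its interaction with AdipoAI, the LPS effect differed at an adjusted p under 0.05 for 1061 of all probes (3.31%). It was smaller with AdipoAI in 820 of them and larger in 241. Among the called probes 701 (22.2%) had such an interaction, with a smaller effect in 618 and a larger one in 83. Choosing the called probes by their size without AdipoAI favours a smaller effect with it, so their split is a description. The filter for all probes also used only the DMSO and LPS arrays. The interaction moreover contains the LPS effect without AdipoAI, so the split of 820 and 241 is a description too. All AdipoAI+LPS arrays and 1 AdipoAI array were in a second scan, and when the scan entered the fit as a block, 98.1% of the probes called there had the same direction and 532 had an interaction.

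**Figure D5:**
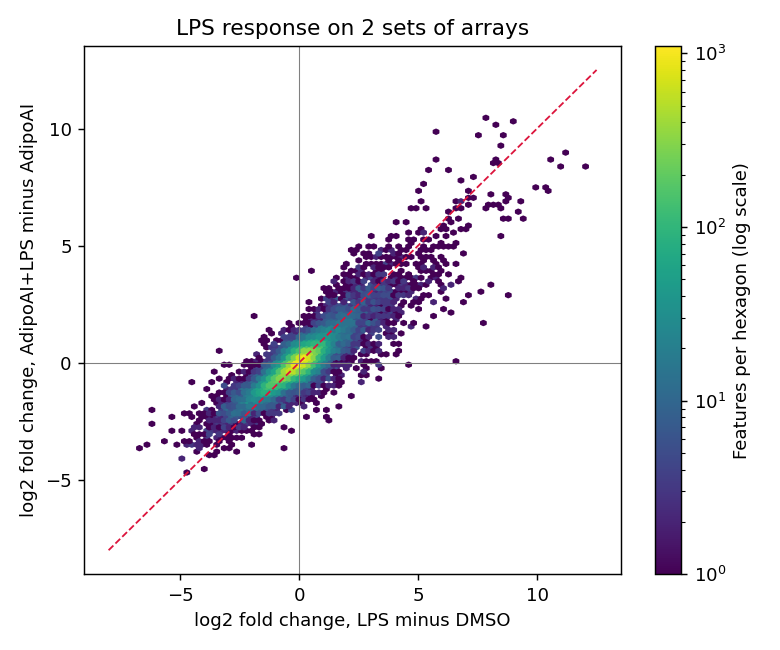
Log2 fold change of AdipoAI+LPS minus AdipoAI (vertical axis) against that of LPS minus DMSO (horizontal axis) for the 32025 probes tested, with colour giving the number of probes per hexagon on a log scale and the dashed line marking equal effects. The cloud follows the diagonal with a Pearson r of 0.869 and lies nearer to the horizontal axis than the dashed line at its upper right and lower left ends.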

How the data were processed

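RNA of RAW264.7 cells was hybridised to 12 1-colour arrays (3 each of DMSO, LPS, AdipoAI and AdipoAI+LPS), grouped by the sample titles. The deposited scanner files hold the intensity of each spot, background-subtracted by the authors' service provider with Agilent Feature Extraction 11.0.1.1 and not normalized between arrays. A deposited series table holds the authors' log2 values of the same arrays, with a median of 3.52 on each of the 6 arrays. Its values correlated with the log2 scanner values of the same array (Pearson r of at least 0.988), its background correction and centring stay unknown, and it was used as an alternative only.

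Of 62939 spots per array, 1439 control spots, 300 spots of 15 negative probes and 221 probes with a non-uniform or population outlier were left out, and the 20 spots of each of 15 probes were averaged. The log2 values of all 12 arrays were then quantile normalized, and the 4 groups were fitted with limma 3.58.1 (lmFit and eBayes, R 4.3.3) with a shared spread. A probe was tested when at least 3 of the 6 DMSO and LPS arrays flagged it as well above background, and p was adjusted by Benjamini-Hochberg across the 32025 probes tested. The script was tested on simulated data. The alternatives covered normalization, background correction (normexp, offset 50), the series table, the filter, fitting 6 arrays alone, the eBayes variance trend, blocks for scan and for replicate number, and each array left out. The array header names the mouse build mm9, and no probe coordinate was used. The 15 RefSeq accessions all matched a symbol in the RefSeq table of GRCm38.p6. Figures and motif searches used Python 3.11.15 and matplotlib 3.10.9.

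The members and gene lists were chosen with earlier results of these data known. Genes were named where the files give a RefSeq accession, with at most 2 unnamed identifiers in each direction, those of the largest change among probes well above background on all 6 arrays. Lists of cytokines, interferon-stimulated genes, cell cycle genes and cell type markers had been prepared and were not scored, for want of gene names.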

Additional observations from a re-analysis of the deposited data

Results flagged for a closer look

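The LPS effect of 701 called probes differed with AdipoAI, by an interaction term of the limma fit over 12 arrays with an adjusted p under 0.05. The values below are the log2 LPS effect with AdipoAI minus that without it, and the scan was not balanced between these groups. With the scan as a block 532 called probes had such an interaction, and the part of the scan in the values of single probes was not tested.

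Gk rose by 1.52 without AdipoAI and by 0.76 with it, a difference of -0.76 (limma adjusted p = 0.0387), and Gusb changed by -0.91 and -0.19, a difference of 0.72 (limma adjusted p = 0.0168). On the AdipoAI arrays the log2 intensity of Gusb was 14.72, 14.78 and 14.85, and on the AdipoAI+LPS arrays 14.49, 14.63 and 14.65. Among the largest changes, ASMM10P018056 rose by 10.98 and 8.43, a difference of -2.54 (limma adjusted p = 0.00161), and ASMM10P036113 by 10.50 and 7.41, a difference of -3.10 (limma adjusted p = 1.26e-05). Of those that fell, ASMM10P040151 changed by -6.41 and -3.58, a difference of 2.84 (limma adjusted p = 4.88e-05), and ASMM10P019158 by -6.18 and -2.61, a difference of 3.57 (limma adjusted p = 0.00019). These 4 probes had been chosen for their size without AdipoAI.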

How the results depend on the processing

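With normexp, 1232 probes were called (783 higher, 449 lower, 63.6% higher), 5861 passed a fold change over 1.5 against 10764, 8 lincRNA-named probes were called against 22, 49.6% of probes with an adjusted p under 0.05 and at least 2-fold were higher (42.9% in the fit reported), 98% of those of at least 16-fold (83.6%), and 99.6% of the called kept their direction with AdipoAI. With only probes well above background on all 6 arrays tested, 2042 were called, 965 lower and 52.7% higher, with 12 lincRNA-named and 99.4% keeping the direction. Without a filter 96.8% kept it. Scaling to the 75th percentile gave 44.3% higher of those with an adjusted p under 0.05 (42.1%) and 44.6% of those at least 2-fold, and the series table gave 87.7% of those at least 16-fold. These last shares were chosen after the values were seen. By the flag for significantly positive spots, which between 51 and 69 of 300 negative spots per array also carried, 247 probes were switched on and 333 off, and with at least 2 arrays of one group and none of the other 681 and 1255. In every fit run, those with an array left out included, falls outnumbered rises with an adjusted p under 0.05, and rises outnumbered falls at 16-fold.

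Leaving out each array in turn gave between 3127 and 3313 called, between 41.2% and 43.6% higher of those with an adjusted p under 0.05, between 42.7% and 44.2% of those at least 2-fold, between 97.8% and 98.6% keeping the direction, between 425 and 613 probes switched on and between 671 and 1073 off. The counts of switched probes could only stay or rise, since fewer arrays then had to meet the rule. Hprt had an adjusted p of 0.06 when DMSO replicate 1 was left out and 0.0689 when LPS replicate 2 was, and that of Actb 0.0526 without LPS replicate 3. Signs turned only in genes near 0. Ppia was 0.062 and Gapdh 0.068 with the 75th percentile and Gapdh 0.005 with normexp, and with arrays left out Ppia lay between -0.025 and 0.011, Gapdh between -0.05 and 0.007, Hsp90ab1 between -0.077 and 0.091 and Tbp between -0.016 and 0.283. Rpl13a, at -0.18, reached an adjusted p of 0.0333 with normexp.

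The labels do not say whether replicate numbers pair the samples. The deviations of arrays with the same number correlated at -0.155, 0.006 and 0.132, and those with different numbers between -0.357 and 0.363. So few arrays cannot decide whether the samples were paired. With the replicate number as a block over the 6 arrays, 3160 probes were called and 5 RefSeq-named genes had an adjusted p under 0.05 against 8, with Actb at 0.0557, Tuba1b at 0.0773 and B2m at 0.0513. The cause of these differences was not tested.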

Other observations

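The numbers in the ASMM10P identifiers carried some order of the response. Over 18689 pairs of tested probes whose numbers differed by 1, the log2 fold changes of LPS minus DMSO had a Pearson r of 0.156, against 0.087 for numbers 2 apart, 0.042 for 3 apart, 0.008 for 10 apart and 0.017 for 500 apart. Among pairs in which both probes were called, 311 of 396 (78.5%) moved in the same direction when their numbers differed by 1, 195 of 257 (75.9%) when 2 apart, 135 of 210 (64.3%) when 3 apart, 90 of 175 (51.4%) when 10 apart and 97 of 169 (57.4%) when 500 apart. All pairs share the same 6 arrays, and what neighbouring numbers have in common, such as a transcript or a place in the genome, is not given in the sources used here.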
